A study of Mus musculus with 6 samples.

Results

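The cytosolic ribosomal protein genes and their paralogs were described in mouse dorsal root ganglia (DRG), where the cell bodies of the body's sensory neurons lie. Members were taken by their gene symbol, as Rpl or Rps followed by a number and an optional letter, together with Rpsa and the stalk genes Rplp0, Rplp1 and Rplp2. This gave 89 of 54242 symbols, 53 of the large subunit and 36 of the small subunit, and 10 of the 89 are paralogs whose names end in l or l1. The other 79 are called core members here. The GENCODE annotation lists 5 members as processed pseudogenes: Rps3a2 and Rps3a3 among the core, and Rpl32l, Rpl6l and Rps12l1 among the paralogs. Rps4l is listed there as a transcribed processed pseudogene. The symbol rule misses a few genes that also code for ribosomal proteins, among them Rpl36al and Rack1, which are given with the related lists.

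There were 6 libraries of polyadenylated RNA, 3 from mice after 10 days of intermittent fasting (called fasted) and 3 from mice fed ad libitum (called fed). All animals were male C57bl/6 mice of 8-10 weeks, and both groups were killed after 24 hours, with no statement of what the 24 hours follow. Ganglia from L4-6 of both groups were broken up with Dispase II, Collagenase Type II and Papain, and neurons were enriched on 15% BSA, so other cells remained in an unknown share. The labels do not tell if each replicate comes from 1 mouse or from several, and p-values therefore rest on a spread between libraries that could be technical alone. The comparison asks which transcripts differ in abundance after intermittent fasting.

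Ribosomal proteins join ribosomal RNA to form the large and the small subunit of the ribosome, and most are needed in equal numbers in each particle. Their genes are among the most active in most tissues. Many of their mRNAs begin with a run of pyrimidines, the 5′ terminal oligopyrimidine (TOP) motif, through which mTOR and LARP1 control their translation when nutrients change, so that protein synthesis can change with little change in mRNA. A few members have paralogs with a restricted expression, such as Rpl3l in striated muscle and Rpl39l and Rpl10l in testis.

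The values were transcripts per 1000000 (TPM), a share of all transcripts in which each transcript is divided by its length, summed here over the transcripts of a gene. Neuronal markers marked the tissue, with a sum over 12 genes of 18398 to 19236 TPM in fasted libraries and of 16858 to 18618 TPM in fed libraries. Fed replicate 2 stood apart, with 3554 TPM over 10 skeletal muscle markers against 260 to 494 TPM in fasted libraries and 436 to 544 TPM in the other fed libraries. Of these markers Pvalb alone had 201.3, 197.4 and 234.9 TPM in fasted replicates 1, 2 and 3. In fed replicates 1, 2 and 3 Pvalb had 214.9, 542.9 and 230.3 TPM. The sums outside fed replicate 2 thus rest in large part on this 1 gene and are no measure of muscle RNA alone. Sums over 8 macrophage markers were 50.9 to 65.8 TPM in fasted libraries and 77.5 to 96.3 TPM in fed libraries. Sums over 7 endothelial markers were 111 to 124 TPM in fasted and 138 to 169 TPM in fed libraries, and those over 5 erythrocyte markers 1715 to 3277 TPM, the highest in fasted replicate 3, and 1284 to 1564 TPM in fed libraries. The groups did not overlap in these 3 sums, and their part in the results on ribosomal protein genes was not tested.

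The core members were abundant and even. The median of their mean levels was 392 TPM, with quartiles of 284 and 470 TPM, and 74 of 79 lay over 100 TPM. In the large subunit the highest were Rplp1, a protein of the acidic stalk that recruits elongation factors, with 1331 ± 57.8 TPM in fasted and 1394 ± 36.2 TPM in fed libraries (SD, n = 3 each), Rpl13a with 879 ± 105 TPM in fasted and 972 ± 59.9 TPM in fed libraries, and Rpl41 with 819 ± 36.1 TPM in fasted and 875 ± 32.3 TPM in fed libraries. In the small subunit the highest were Rps29 with 800 ± 28.5 TPM in fasted and 849 ± 30.2 TPM in fed libraries, Rps15 with 647 ± 28.9 TPM in fasted and 665 ± 28.4 TPM in fed libraries, Rps2 with 629 ± 19.0 TPM in fasted and 637 ± 17.1 TPM in fed libraries, and Rps24 with 605 ± 29.2 TPM in fasted and 649 ± 45.0 TPM in fed libraries. Each of these 7 had overlapping groups. The coefficient of variation between replicates had a median of 3.9% over core members in fasted libraries and of 3.3% in fed libraries. The lowest core members were the pseudogenes Rps3a2 and Rps3a3, both under 1 TPM in every library, then Rpl12, Rps27 and Rpl5, whose low level is taken up with their copies.

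Together the 89 members held 3.22%, 3.17% and 3.01% of all TPM in fasted replicates 1, 2 and 3, and 3.27%, 3.36% and 3.21% in fed replicates 1, 2 and 3. The ranges overlapped, since fasted replicate 1 lay just above fed replicate 3. The core large subunit sum was 1.50, 1.51 and 1.53 times the core small subunit sum in fasted replicates 1, 2 and 3, and 1.49, 1.48 and 1.50 times in fed replicates 1, 2 and 3. These ratios overlapped too, with fasted replicate 3 the highest.

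No ribosomal protein gene changed by the test, but most leaned the same way. After a filter of a mean of at least 1 TPM, 82 of 89 members and 15097 genes in all were tested with limma on log2(TPM + 1), which understates the change of low genes. With Benjamini-Hochberg adjustment over all genes, 0 of 82 members passed an adjusted p of 0.05, the smallest being 0.42, while over all genes 1 passed (0.00662%), Gm23257, which is no member and was named after its values were seen. The log2 fold change was below 0 for 72 of 82 members, against 37.5% of all tested genes. At an unadjusted p under 0.05 there were 17 members, against 9.94% of all genes. Of these, 15 members were lower in fasted libraries, against 3.22% of all genes, and 2 were higher, against 6.72% of all genes. The fasted libraries lay wholly below the fed ones for 22 members, against 5.07% of genes, and wholly above them for 2, against 12.7% of genes. In bulk tissue, fewer cells of a type and less RNA per cell cannot be told apart.

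The lean was shared by both subunits and was small. Among the 46 core members of the large subunit, 39 had a fold change below 0, with a median log2 fold change of -0.05. Among the 31 tested core members of the small subunit, 30 had one below 0, with a median of -0.09, and the exception was Rps27. The median over all tested genes was 0.03. With median-of-ratios scaling that median was 0.00, the medians over all tested members of the large and the small subunit, paralogs included, were -0.08 and -0.12 (against -0.05 and -0.09 over the same members as deposited), and 75 of 82 members were below 0. Mitochondrial protein genes held 4.74% to 5.15% of all TPM in fasted and 5.62% to 8.86% in fed libraries, and with TPM rescaled without mitochondrial genes the medians over the same members were -0.09 and -0.12. Fasted replicate 3 was the lowest of the 6 libraries for 59 of 77 tested core members (76.6%), against 11.2% of all genes. Fed replicate 2, the library with the highest sum of muscle markers, was the highest for 49 of 77 (63.6%), against 15.6% of all genes. Without fasted replicate 3, 64 of 82 members had a fold change below 0, the medians, again with paralogs, were -0.04 in each subunit, and 4 members were lower at an unadjusted p under 0.05. Without fed replicate 2, 71 members had a fold change below 0, the same medians were -0.04 in the large and -0.05 in the small subunit, and 5 members were lower at an unadjusted p under 0.05.

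**Figure D1:**
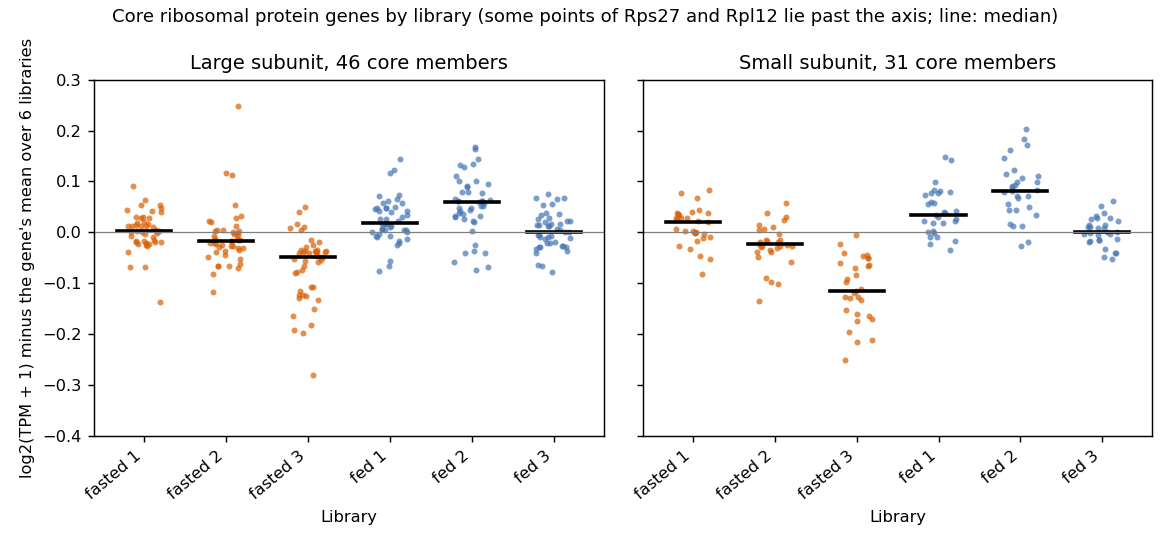
Values of the tested core members in each library, as log2(TPM + 1) minus the mean of the gene over 6 libraries, for the large (46 genes) and the small subunit (31 genes); each point is a gene, black lines are medians, and some points of Rps27 and Rpl12 lie past the axis. The medians were lowest in fasted replicate 3, at -0.05 for the large and -0.11 for the small subunit, and highest in fed replicate 2, at 0.06 and 0.08.

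**Figure D2:**
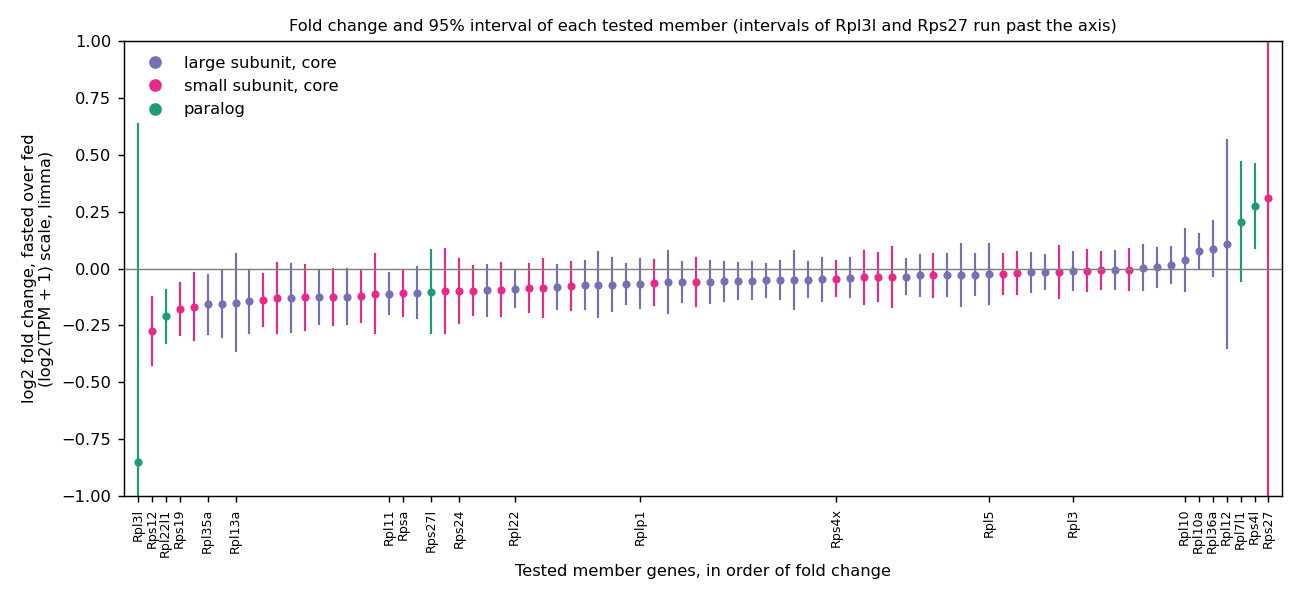
Log2 fold change of fasted over fed libraries on the log2(TPM + 1) scale with its 95% interval from limma, for each of the 82 tested members in order of fold change (a few named on the axis), coloured by subunit and paralog (3 libraries a group). Of the 82 points, 72 lie below 0 and most intervals include 0; the intervals of Rpl3l and Rps27 run past the axis.

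The small subunit held the core member with the smallest p. Rps12, a protein of the small subunit whose fly counterpart takes part in cell competition in Drosophila, had 373.9, 346.5 and 319.8 TPM in fasted replicates 1, 2 and 3, against 421.8, 438.6 and 397.7 TPM in fed replicates 1, 2 and 3. Every fasted library lay below every fed one, yet the difference did not pass the test (log2 fold change -0.28, SE 0.06, limma adjusted p = 0.42). Its direction was the same in each alternative tried, between -0.33 and -0.20. Rps19, mutated in the human Diamond-Blackfan anaemia, had 236.2, 221.6 and 213.8 TPM in fasted libraries and 262.7, 252.2 and 244.4 TPM in fed ones, also without overlap (-0.18, SE 0.05, adjusted p = 0.42). When only its most abundant transcript was used, the Rps19 difference was -0.04. Rpsa, a small subunit protein also known as the laminin receptor, had 371.5, 366.5 and 344.1 TPM in fasted libraries and 390.0, 398.6 and 376.3 TPM in fed ones (-0.11, SE 0.04, adjusted p = 0.50). In all 3 genes fasted replicate 3 was the lowest library.

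In the large subunit the core differences were smaller. Rpl35a, another gene mutated in Diamond-Blackfan anaemia in humans, had 412.8, 390.4 and 360.5 TPM in fasted replicates 1, 2 and 3, against 422.8, 449.1 and 424.7 TPM in fed ones (-0.16, SE 0.06, limma adjusted p = 0.48). Rpl11, which with Rpl5 and the 5S ribosomal RNA can bind the p53 regulator Mdm2, had 391.8, 362.9 and 382.6 TPM in fasted libraries and 406.3, 411.5 and 409.3 TPM in fed ones (-0.11, SE 0.04, adjusted p = 0.48). Neither gene had overlapping groups, and neither passed the test. For the most abundant member, Rplp1, the difference was -0.07 (SE 0.05, adjusted p = 0.60), and for Rpl13a, known for a role in silencing inflammatory mRNAs once it leaves the ribosome, it was -0.15 (SE 0.09, adjusted p = 0.55) with 758 TPM in fasted replicate 3 against 939 and 940 TPM in the other fasted libraries. Rpl3, which lines the centre where peptide bonds form, had 563.1, 554.9 and 541.6 TPM in fasted libraries and 565.2, 545.8 and 561.5 TPM in fed ones, a difference of -0.01 with a 95% interval of -0.09 to 0.07. The corresponding values were -0.02 for Rpl7, -0.03 for Rpl32 and -0.01 for Rpl6, all with overlapping groups.

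The annotated start sites differed in the pyrimidine runs near them. Windows of 30 bases around the annotated start, 10 before and 20 after it, are given for the members with the smallest p that RefSeq's promoter table (GRCm38.p6) holds, and for 2 parent and paralog pairs, with the longest pyrimidine run in capitals.
Rps12 (chr10:23787190-23787219, minus strand): tcatgcggccaccgccggCCTTTTCCCCTg
Rps19 (chr7:24884903-24884932, plus strand): agcggggtgtggagggCTCTCCCacgcggt
Rpl35a (chr16:33056472-33056501, plus strand): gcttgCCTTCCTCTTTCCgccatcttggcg
Rpl11 (chr4:136053374-136053403, minus strand): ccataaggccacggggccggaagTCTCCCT
Rpl22 (chr4:152324426-152324455, plus strand): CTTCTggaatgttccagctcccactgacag
Rpl22l1 (chr3:28805498-28805527, plus strand): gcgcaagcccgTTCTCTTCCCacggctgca
Rps27 (chr3:90213629-90213658, minus strand): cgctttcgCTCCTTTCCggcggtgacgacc
Rps27l (chr9:66946076-66946105, plus strand): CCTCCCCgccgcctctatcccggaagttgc
Counting the start as base 1, with no base 0, the run began at base 9 in Rps12 (11 bases), 7 in Rps19 (7 bases), -5 in Rpl35a (13 bases), 14 in Rpl11 (7 bases), 2 in Rpl22l1 (10 bases) and -2 in Rps27 (9 bases), and at base -10 in Rpl22 (5 bases) and Rps27l (7 bases). The capital runs of Rpl11, Rpl22 and Rps27l reach the edge of the window and may be longer. The Rpl22 window holds another run of 5 bases further on, and the earlier one is in capitals. Rpl7l1, whose window is not shown, had no run longer than 2 bases. RefSeq lists 2 starts for Rpl22 and for Rps27l and 3 for Rps19 and Rpl35a, and of these the start whose window holds the longest run is shown. For Rpl22 this start lies before the gene as GENCODE M21 lists it, which begins at base 152325742. The Rpl22 window is thus not that of the start of the gene whose TPM are given. Other windows lie wholly inside the genes as GENCODE M21 lists them. On the plus strand these are Rps19 (gene from base 24884371), Rpl35a (from 33056453) and Rpl22l1 (from 28805436). On the minus strand they are Rps12 (gene from base 23787275) and Rpl11 (from 136053428). Which starts were in use was not tested.

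Over 64 members with 76 annotated starts in that table, a C exactly at the start followed by at least 4 pyrimidines was found at 14 starts (18.4%), against 2.51% of all 32851 starts. A C followed by at least 5 pyrimidines on the sense strand within 15 bases on either side was found at 38 (50%), against 22.5% of all starts. In the whole 300 bases, on both strands, the ETS core CCGGAAG was in 35.5% of member promoters against 8.86% of all, the YY1 core AAGATGGC in 10.5% against 2.75%, and the letters TATAAA in 10.5% against 13.6%. These are matches of letters and not sites of binding, and a shift of a few bases in an annotated start changes the count exactly at the start. No measurement in this series bears on binding at these promoters.

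Of the 10 paralogs, 5 passed the filter, and they did not share 1 direction, with 3 lower and 2 higher. Rpl22l1, the paralog that Rpl22 is known to repress in mouse cells, had 181.0, 167.2 and 159.0 TPM in fasted replicates 1, 2 and 3, against 196.2, 194.7 and 195.6 TPM in fed ones. The 3 fed libraries differed by less than 2 TPM, and all fasted libraries lay below them (log2 fold change -0.21, SE 0.05, limma adjusted p = 0.42). Its parent Rpl22, a large subunit protein also known to bind RNA of the Epstein-Barr virus, had 215.5, 212.9 and 207.4 TPM in fasted libraries and 221.3, 225.9 and 228.7 TPM in fed ones (-0.09, SE 0.03, adjusted p = 0.50). Both were thus lower without overlap, and Rpl22l1 made up 45.6%, 44.0% and 43.4% of the TPM of the pair in fasted libraries and 47.0%, 46.3% and 46.1% in fed ones. The coding sequences of the pair were 73.3% identical over 360 aligned bases, so most reads can be told apart.

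Rps4l, a processed copy related to the X-linked Rps4x, was the member with the smallest p among those higher in fasted libraries. It had 72.7, 62.9 and 65.3 TPM in fasted replicates 1, 2 and 3, against 56.1, 49.7 and 59.6 TPM in fed ones (0.28, SE 0.08, limma adjusted p = 0.45). Rps4x had 517.0, 508.9 and 498.0 TPM in fasted libraries and 525.3, 520.3 and 526.2 TPM in fed ones (-0.04, SE 0.03, adjusted p = 0.63). The groups did not overlap in either gene, in opposite directions, and Rps4l held 11.6 ± 0.7% of the TPM of the pair in fasted libraries and 9.5 ± 0.7% in fed ones (SD, n = 3 each). The best local match of the 2 transcripts was 78.5% identical over 903 bases.

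Rpl7l1, a distant relative of Rpl7 with 64.9% identity over 703 aligned coding bases, had 48.2, 48.1 and 43.3 TPM in fasted libraries and 42.3, 33.3 and 45.8 TPM in fed ones (0.21, SE 0.11, limma adjusted p = 0.53). Fed replicate 2 was the lowest and the groups overlapped. Rps27l, a paralog of Rps27 and a known p53 target, had 95.7, 102.2 and 95.5 TPM in fasted libraries and 107.7, 115.6 and 92.7 TPM in fed ones (-0.10, SE 0.08, adjusted p = 0.63), also with overlap. Rpl3l, the striated muscle paralog of Rpl3, had 0.53, 1.79 and 1.40 TPM in fasted libraries and 1.28, 11.1 and 1.19 TPM in fed ones. The 11.1 TPM is from fed replicate 2, in which the muscle gene Ckm (muscle creatine kinase) stood at 490.0 TPM against 9.07 to 38.4 TPM in fasted libraries and 37.6 and 52.2 TPM in the other fed libraries. The log2 fold change of Rpl3l was -0.85 with fed replicate 2 and -0.04 without it, and neither passed the test.

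The paralogs that did not pass the filter, among them Rpl10l and Rpl39l known from testis, were at or near 0. Rpl10l was listed at 0 in all 6 libraries, and Rpl39l at 0.41, 0 and 0.83 TPM in fasted libraries and at 0 in all fed ones. Of the processed pseudogenes, Rps12l1 was listed at 0 in all 6 libraries, and Rpl32l and Rpl6l stayed under 0.40 TPM in every library. Of 4 germ cell markers, Prm1, Prm2 and Tnp1 were at 0 throughout, while Ddx4 had 1.57, 1.71 and 1.95 TPM in fasted libraries and 1.21, 2.31 and 1.50 TPM in fed ones. Rpl39, the parent of Rpl39l, had 301.1, 293.8 and 260.2 TPM in fasted libraries and 308.0, 328.7 and 297.6 TPM in fed ones (-0.13, SE 0.06, limma adjusted p = 0.52).

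**Figure D3:**
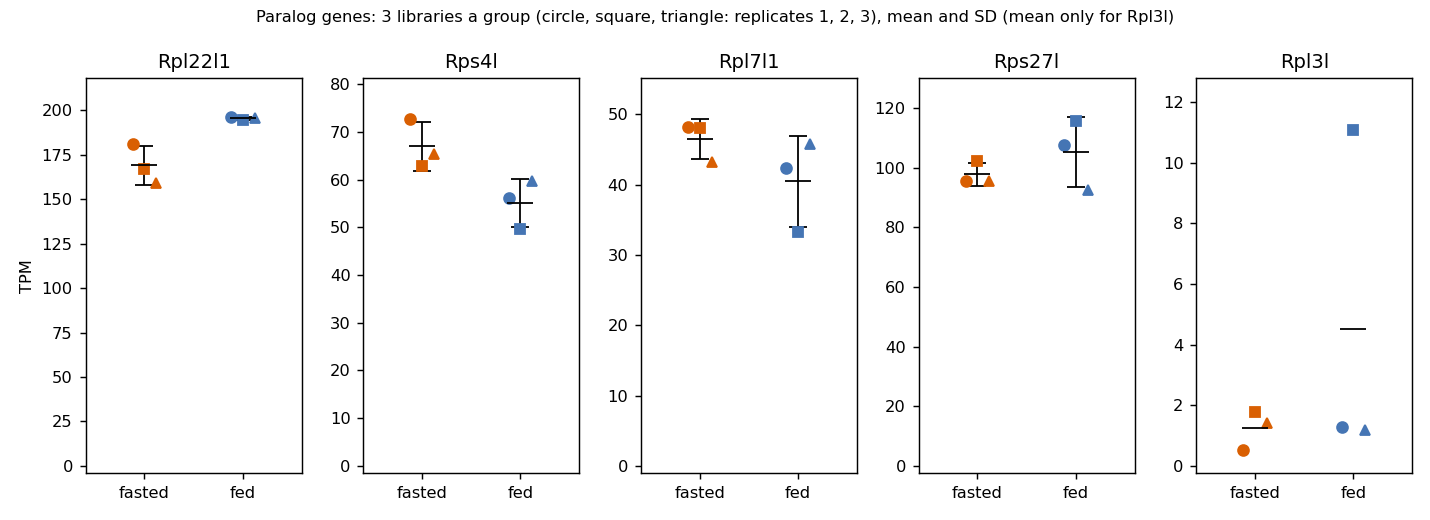
TPM of the 5 tested paralogs in each library, with the fasted libraries left of the fed ones; symbols mark replicates 1, 2 and 3 and black marks the mean and SD (the mean alone for Rpl3l). Rpl22l1 lay lower and Rps4l higher in all fasted libraries, and the Rpl3l mean of fed libraries rests on the 11.1 TPM of fed replicate 2.

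The mouse genome holds many processed copies of these genes, and reads from stretches that a gene and its copy share cannot be told apart. How reads were divided between members and their copies was not tested. Rows of other genes whose transcripts matched a core member's mRNA at 95% identity or more over at least 80% of their own length, with a mean of at least 1 TPM, numbered 37 and belonged to 29 members. The annotation lists 33 of them as pseudogenes and 4 as protein-coding, 15 matched at 100%, and 15 lay over 100 TPM. In 9 members the copies held more than 50% of the summed TPM. Rps27, a zinc-binding protein of the small subunit, shows this best. Its coding sequence is the same as that of Rps27rt, an intronless copy on chromosome 9, over all 252 bases, while Rps27l differs at 60 of 252. The first 60 coding bases are given from GENCODE M21 (GRCm38), with the bases in which Rps27l differs from Rps27 in capitals.
Rps27 (chr3:90212522-90213651, minus strand): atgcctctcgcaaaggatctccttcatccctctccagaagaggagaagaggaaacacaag
Rps27rt (chr9:114982366-114982739, minus strand): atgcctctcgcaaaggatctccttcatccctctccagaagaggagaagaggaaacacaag
Rps27l (chr9:66946086-66949516, plus strand): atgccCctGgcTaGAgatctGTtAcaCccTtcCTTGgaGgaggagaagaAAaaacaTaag
The coordinates are those of the whole genes.

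The row of Rps27 read 27.5, 34.5 and 3.87 TPM in fasted replicates 1, 2 and 3, against 6.09, 6.61 and 46.7 TPM in fed ones, a wide spread for its level. Rps27rt held 504.7, 544.5 and 509.9 TPM in fasted libraries and 634.5, 651.7 and 544.9 TPM in fed ones. Summed, the 2 rows gave 532.3, 579.0 and 513.8 TPM in fasted libraries and 640.5, 658.3 and 591.6 TPM in fed ones, without overlap (log2 fold change -0.22, SE 0.06, limma adjusted p = 0.41). The positive value of Rps27 alone (0.31, SE 0.94) thus belongs to a row whose copy held 96.4% of the family's TPM. Likewise Gm10275 held 96.5% of the sum with Rpl12, a protein of the factor-binding centre of the large subunit, and Gm15500 held 91.8% of the sum with Rpl5. Summed, Rpl12 and its copy had 343 ± 11.2 TPM in fasted and 361 ± 20.6 TPM in fed libraries, and Rpl5 and its copy 427 ± 15.1 TPM in fasted and 429 ± 10.9 TPM in fed libraries (SD, n = 3 each). With their copies all 3 genes came to levels in the range of other members.

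Of the 8 tested core members with a log2 fold change above 0, 6 had such copies, and each of these 6 sums had a log2 fold change below 0. The other 2, Rpl4 at 0.02 and Rpl18 at 0.0045, had no such copy, and both are named here because of those values. The 8 were picked by their values. Copies were found for 29 of the 79 core members, and every sum with copies lay below 0. The part of the copies in these signs was not tested. Rpl10a, of the stalk through which used transfer RNA leaves, had 272.7, 272.9 and 264.5 TPM in fasted libraries and 252.8, 255.6 and 259.2 TPM in fed ones (0.08, SE 0.03, limma adjusted p = 0.50). Its copy Rpl10a-ps1, identical over its whole length, had 130.5, 109.1 and 120.4 TPM in fasted libraries and 134.1, 153.3 and 150.5 TPM in fed ones, and the sum differed by -0.04 (SE 0.04, adjusted p = 0.70). The TPM of Rpl10a itself include the form Rpl10a-209, with 16.0, 11.7 and 13.6 TPM in fasted libraries and listed at 0 in all fed ones. Such an exact 0 can be a failed estimate. Some other forms of Rpl10a had a higher mean in fasted libraries and some a lower one. The part of Rpl10a-209 in the higher value of Rpl10a was not tested. Rpl36a read 346.7 ± 19.5 TPM in fasted and 326.2 ± 13.1 TPM in fed libraries (0.09, SE 0.05, adjusted p = 0.55), and with Rpl36a-ps2 the difference was -0.06. Rpl10, a protein that joins the large subunit late in its assembly, read 161.5 ± 10.4 TPM in fasted and 157.1 ± 8.2 TPM in fed libraries (0.04, SE 0.06, adjusted p = 0.81), and with Rpl10-ps3 and Rpl10-ps6, which held 77.9% of the sum, it was -0.05. The lower value of Rpl11 also shrank with its 3 copies, to -0.01. Other members moved further below 0 with their copies, such as Rpl35 from -0.06 to -0.15 and Rpl37 from -0.11 to -0.20. Rpl35 and Rpl37 are named here because of those values. With all copies added to their members, 78 of 82 members had a fold change below 0 and 4 had one above it, 0 passed, and the members with copies held 3.60 ± 0.11% of all TPM in fasted and 3.78 ± 0.09% in fed libraries.

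**Figure D4:**
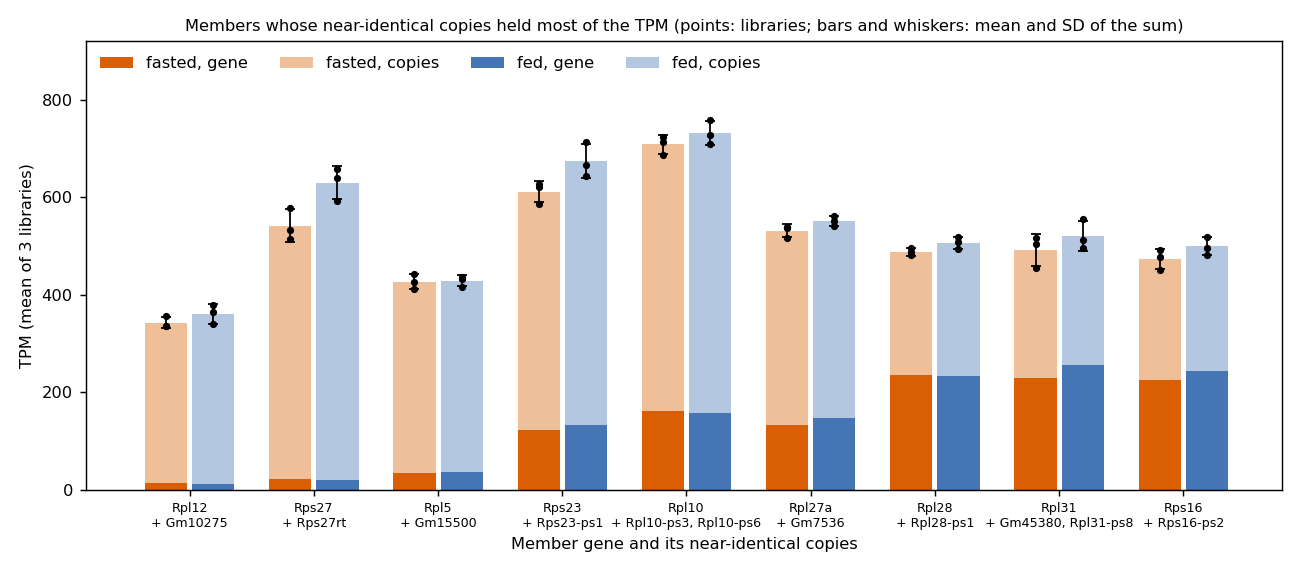
Mean TPM in fasted (left bar of each pair) and fed libraries of the 9 members whose near-identical copies held more than 50% of the summed TPM; the dark part is the member, the pale part its copies, points are the sums in the 3 libraries of a group and whiskers their SD. Mean and SD do not overlap between the groups for Rps27 with Rps27rt, at 542 ± 33.6 TPM in fasted and 630 ± 34.6 TPM in fed libraries, and for Rps23 with Rps23-ps1, at 612 ± 21.8 TPM in fasted and 675 ± 35.4 TPM in fed libraries. Neither sum passed the test (limma adjusted p = 0.41 for Rps27 and 0.48 for Rps23, each with its copy).

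Members were also tested per transcript. The table lists 505 transcripts of member genes, of which 264 had a mean of at least 1 TPM, and 1 of these passed, against 9 of all 33197 tested transcripts (0.0271%). At an unadjusted p under 0.05 there were 29, against 7.21% of all transcripts. The 1 called was Rpl10a-209, with 16.0, 11.7 and 13.6 TPM in fasted replicates 1, 2 and 3 and listed at 0 in all fed libraries (limma adjusted p = 0.0016; 0.14 with the replicate number as a block). It is a form of 511 bases, and of its 481 stretches of 31 bases 453 also occur in other transcripts of the gene, so that 28 are its own. Of the 9 called transcripts, 8 were listed at 0 in every library of 1 group, and in estimated abundances an exact 0 can be a failed estimate. The main form Rpl10a-201 had 135.9, 143.1 and 131.1 TPM in fasted libraries and 153.6, 128.3 and 98.6 TPM in fed ones, with overlap.

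The next member transcripts did not pass (smallest adjusted p 0.61). Rpl13a-204 was listed at 0 in all fasted libraries and at 2.05, 1.05 and 5.01 TPM in fed ones. Rpl14-204 had 0.86, 1.97 and 0 TPM in fasted libraries and 4.29, 4.55 and 4.09 TPM in fed ones. Both are minor forms. Rps12-203 was abundant and carried most of the gene with 357.6, 333.4 and 304.7 TPM in fasted libraries and 408.9, 422.9 and 383.5 TPM in fed ones (log2 fold change -0.29, SE 0.07).

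Rps24 is known for spliced forms that differ at the end of the protein, in proportions that vary between tissues. Here 3 forms held most of its TPM. The last shared coding bases before the stop codon are given in lower case, with the codon that Rps24-205 adds in capitals (GENCODE M21, gene at chr14:24487125-24496959, plus strand).
Rps24-205: ggtgctggcaaaaagAAA
Rps24-202: ggtgctggcaaaaag
Rps24-201: ggtgctggcaaaaag
Rps24-202 and Rps24-201 have the same coding sequence of 390 bases and differ outside it. Rps24-205 held 50.5%, 46.3% and 52.7% of the TPM of Rps24 in fasted replicates 1, 2 and 3, and 44.6%, 46.8% and 47.8% in fed ones. Its level hardly differed, with 301 ± 16.7 TPM in fasted and 301 ± 24.7 TPM in fed libraries (log2 fold change 0.0009, SE 0.07, limma adjusted p = 0.998). Rps24-202 had 209 ± 17.7 TPM in fasted and 225 ± 19.1 TPM in fed libraries (-0.10, SE 0.08, adjusted p = 0.78). Rps24-201 had 93.1, 85.8 and 53.3 TPM in fasted libraries and 116.6, 107.2 and 87.0 TPM in fed ones, an overlap by fasted replicate 1 (-0.45, SE 0.22, adjusted p = 0.69). The other 4 forms over 1 TPM, Rps24-204, Rps24-207, Rps24-208 and Rps24-210, had means between 1.81 and 6.83 TPM.

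**Figure D5:**
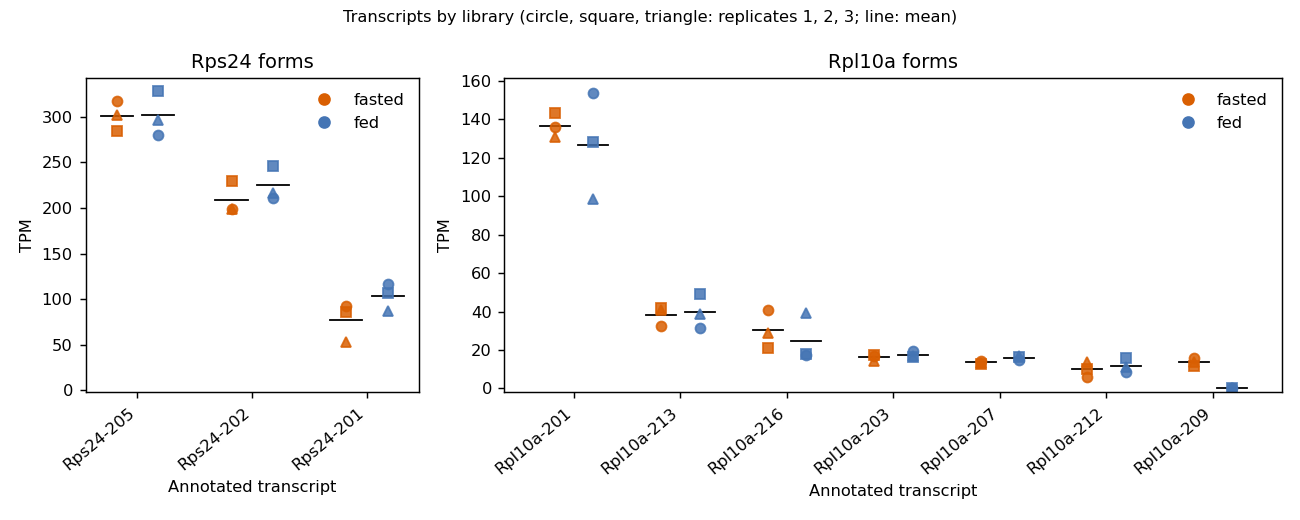
TPM of the 3 main Rps24 forms (left panel) and of 7 forms of Rpl10a (right panel) in each library, fasted left of fed within each form; symbols mark replicates 1, 2 and 3 and lines the means. Rps24-205 has the same mean of 301 TPM in both groups, and Rpl10a-209 is listed at 0 in the fed libraries only.

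Ribosomal protein mRNAs are short, and short mRNAs as a class were compared beside them. The most abundant transcripts of the 77 tested core members were 345 to 2045 bases long, with a median of 677. Other protein-coding genes with a main transcript under 600 bases had a median log2 fold change of -0.01, with 52.1% below 0, while the 35 members in that class had -0.09. From 600 to 1000 bases the medians were 0.01 for 863 other genes and -0.05 for 30 members. Other genes of 4000 bases or more had a median of 0.04. Among 332 other protein-coding genes both under 1000 bases and at 100 TPM or more, 144 (43.4%) were below 0, with a median of 0.01. Within the core members the fold change and the length had a Pearson r of 0.17 and a Spearman rho of 0.35, across 77 genes that share the same 6 libraries and are not independent.

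Related lists lay near the median of all genes or above it, apart from the remaining ribosomal proteins. Of the 4 ribosomal proteins outside the symbol rule, 0 passed and all 4 had a value below 0, with a median of -0.03. Rpl36al, whose protein is almost that of Rpl36a, had 277.7, 273.0 and 252.9 TPM in fasted libraries and 261.5, 291.1 and 256.8 TPM in fed ones (-0.01, SE 0.06, limma adjusted p = 0.96), and Rack1, a scaffold on the small subunit, differed by -0.04 (SE 0.05, adjusted p = 0.74). Of 20 translation factors and other genes known to have TOP mRNAs, 0 passed, 15 had a value above 0 and 5 below, with a median of 0.03, the same as that of all genes. With median-of-ratios scaling 10 of the 20 were above 0 and 10 below, with a median of 0.00, while all 4 remaining ribosomal proteins stayed below 0, with a median of -0.06. Tpt1 had 1141 ± 19.1 TPM in fasted and 1223 ± 35.7 TPM in fed libraries (-0.10, SE 0.04, adjusted p = 0.50), and Eif3l, of the initiation factor eIF3, 103.8 ± 2.4 TPM in fasted and 96.6 ± 2.7 TPM in fed libraries (0.10, SE 0.04, adjusted p = 0.49). The neuronal elongation factor Eef1a2, which is not a TOP gene, had 1259 ± 26.7 TPM in fasted and 1161 ± 78.8 TPM in fed libraries (0.12, SE 0.06, adjusted p = 0.52).

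Genes for making and controlling ribosomes gave 0 calls as well. Of 15 genes of RNA polymerase I, which transcribes ribosomal RNA, 11 had a value above 0, with a median of 0.09. In this list Rrn3, the factor that brings the polymerase to ribosomal DNA, had 66.1 ± 1.6 TPM in fasted and 59.6 ± 2.8 TPM in fed libraries (0.15, SE 0.05, limma adjusted p = 0.48), and Taf1a 30.0 ± 0.6 TPM in fasted and 26.4 ± 2.0 TPM in fed libraries (0.18, SE 0.06, adjusted p = 0.48). Of 38 assembly factors 25 had a value above 0, with a median of 0.02. There Tsr2, a chaperone of Rps26, differed by 0.09 (SE 0.04, adjusted p = 0.51) and Wdr12, of the complex that matures the large subunit, by -0.14 (SE 0.07, adjusted p = 0.52). Of 14 genes of the mTOR and LARP control of these mRNAs 12 had a value above 0, with a median of 0.04. Rheb, the activator of mTOR, had 273.6 ± 10.0 TPM in fasted and 253.7 ± 10.1 TPM in fed libraries (0.11, SE 0.04, adjusted p = 0.50), and Larp4 38.9 ± 2.4 TPM in fasted and 35.0 ± 1.0 TPM in fed libraries (0.15, SE 0.05, adjusted p = 0.49). Of 79 genes of the mitochondrial ribosome 55 had a value above 0, with a median of 0.03. Mrpl19 had 28.4 ± 1.1 TPM in fasted and 23.7 ± 1.5 TPM in fed libraries (0.25, SE 0.06, adjusted p = 0.42), and Mrps16 30.6 ± 1.6 TPM in fasted and 34.8 ± 1.1 TPM in fed libraries (-0.18, SE 0.05, adjusted p = 0.45). These majorities depended on the scaling: with median-of-ratios scaling 10 of 15 polymerase I genes were above 0, with a median of 0.06, but 17 of 38 assembly factors, 7 of 14 control genes and 38 of 79 mitochondrial ribosome genes were, each with a median within 0.01 of 0.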

How the data were processed

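The authors deposited TPM for 140992 transcripts. The submitters' processing notes name Salmon 1.6.0, DESeq2 1.34.0, Trim Galore 0.6.6 and FastQC 0.11.9 and the builds mm10 and GRCm38, without their roles. TPM hold no counts, so depth and counting error are unknown. They were summed per gene symbol, symbols averaging 1 TPM or more were kept, and log2(TPM + 1) was compared by limma 3.58.1 in R 4.3.3, two-sided and with an intensity trend, with Benjamini-Hochberg adjustment over everything tested. Members were matched to GENCODE M21, which held 98.7% of the transcript versions, and copies were sought with blastn 2.17.0. The test was tried on simulated data, in which genes varied independently and the changes set were larger than that of any tested member. That trial therefore cannot show if small changes shared by many genes would be found.

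The members and lists were chosen with earlier results of these data known. Genes named are every paralog and its parent, the 4 highest and 2 lowest members of each subunit, the 6 smallest p in each direction, a few fixed by name, the forms of Rps24 over 1 TPM, the 5 other transcripts with the smallest p, and 2 genes of each related list. A few genes this rule takes are not reported here. Ckm falls outside this rule and was named after its values were seen. Alternatives were other pseudocounts (0.5, 0.1) and filters (none, 5 TPM), scalings by median of ratios, TMM-type factors and quantiles, rescaling without mitochondrial genes, an untrended fit, a replicate block, sums per identifier, main transcripts, added pseudogenes and leaving out each library. Added copies and protein-coding transcripts alone were chosen after seeing the data.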

Additional observations from a re-analysis of the deposited data

How the results depend on the processing

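Over 21 alternatives 0 members passed in each, and the medians of both subunits stayed below 0. The large subunit median, over tested members with paralogs, was -0.053 as reported, -0.0847 with median-of-ratios scaling, -0.0837 with TMM-type scaling and -0.0859 without mitochondrial genes, scalings that brought the median of all genes down to 0.00. Leaving out 1 library gave -0.072 to -0.036 for the large and -0.11 to -0.043 for the small subunit. Over all genes, 1 was called as reported, 2 with a pseudocount of 0.5 or of 0.1, 0 without a filter, 0 with protein-coding transcripts only, and 1 to 7 with 1 library left out. Transcripts called were 9 as reported and 4 to 14 with 1 library left out. With the replicate number as a block, 1 gene, 0 members and 0 transcripts were called. The numbers were not taken as pairs, since deviations of same-numbered libraries correlated at 0.093, 0.114 and 0.066, although each library correlated best with its own number.

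Of 34 named genes and transcripts, 24 kept their sign. Rpl10 turned to -0.0033 with quantile normalization, -0.16 with main transcripts only, and -0.0471 and -0.0473 with pseudogenes and with copies added. With these additions Rpl10a turned to -0.0427 and -0.0428, and Rpl36a to -0.0614 and -0.0589. Rps27 turned to -0.22 and Rpl12 to -0.0734 with copies added, and Rps24 to 0.00090 with main transcripts only. Leaving out 1 library gave ranges across 0, from -0.0088 to 0.0829 for Rpl10, from -0.22 to 1.22 for Rps27, from -0.0891 to 0.31 for Rpl12, from -0.0438 to 0.0465 for Rpl36al, from -0.0265 to 0.0040 for Rpl3, from -0.0237 to 0.0097 for Rpl6 and from -0.0649 to 0.0278 for Rpl5. The cause of these changes was not tested. No depth is known, so the part of counting error in the spread is not known either. How small a change these libraries could show was not worked out beyond the standard errors and intervals given, which rest on the spread between libraries.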
